A study of Mus musculus with 6 samples.

Results

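Peripheral nerve in mouse uterus samples was followed through 8 genes of Schwann cells and their myelin: Mbp, Pmp22, Sox10, Mag, Prx, Egr2, Ncmap and S100b. They were selected on their fold changes between these same groups, as a contrast with neuronal transcripts, and were taken by gene symbol from the 26018 genes of the deposited table. All 8 were found there and passed the filter on low reads. Uterine tissue came from 6-week-old female mice matched for body weight. The conditional knockout (cKO) group was 3 animals of genotype Tcf21 d/d, and the control group was 3 animals of genotype Tcf21 f/f, in which the gene is floxed. The product of Tcf21 is a transcription factor of mesenchymal cells, with a basic helix-loop-helix domain, and the study sought genes downstream of it in uterine development. Which Cre line removed the gene is not given here, and no animal was treated. Each library came from 1 animal.

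Schwann cells wrap the axons of peripheral nerves. Sox10 and Egr2 are the transcription factors that direct a myelinating Schwann cell, and they act on genes of the myelin sheath such as Mbp, Pmp22, Mag and Prx. Most autonomic axons, which make up much of the uterine innervation, are carried unmyelinated by non-myelinating Schwann cells, whereas motor and many sensory axons of skeletal muscle are myelinated. The cell bodies of the neurons lie in ganglia, so that neuronal transcripts in a tissue sample come mainly from ganglia included in it, while Schwann cell transcripts are made along the nerve itself. Several of the 8 genes are also used elsewhere: Sox10 in melanocytes and enteric glia, S100b in enteric glia and adipocytes, Egr2 in stimulated fibroblasts and lymphocytes, and Pmp22 in fibroblasts and endothelium.

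The 250 bases before the transcription start (RefSeq, GRCm38.p6) are shown for Mag, Prx and Ncmap because these members lay higher in every cKO library than in any control library. Capitals mark a match, on either strand, to the SOX core motifs ACAAAG and ACAAT or to the EGR core motif GTGGGCG. The windows are chr7:30914864-30915113 on the minus strand for Mag, chr7:27499074-27499323 on the plus strand for Prx and chr4:135398228-135398477 on the minus strand for Ncmap, each written 5′ to 3′ and ending at the base before the start.
Mag: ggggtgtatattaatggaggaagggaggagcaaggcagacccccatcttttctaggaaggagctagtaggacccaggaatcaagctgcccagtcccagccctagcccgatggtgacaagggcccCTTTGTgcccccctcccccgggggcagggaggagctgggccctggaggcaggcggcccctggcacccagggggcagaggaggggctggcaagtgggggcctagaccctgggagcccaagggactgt
Prx: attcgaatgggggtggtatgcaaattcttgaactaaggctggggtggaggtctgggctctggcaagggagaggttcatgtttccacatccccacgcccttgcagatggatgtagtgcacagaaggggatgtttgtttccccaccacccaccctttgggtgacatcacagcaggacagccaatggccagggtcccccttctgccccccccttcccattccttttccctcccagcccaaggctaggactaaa
Ncmap: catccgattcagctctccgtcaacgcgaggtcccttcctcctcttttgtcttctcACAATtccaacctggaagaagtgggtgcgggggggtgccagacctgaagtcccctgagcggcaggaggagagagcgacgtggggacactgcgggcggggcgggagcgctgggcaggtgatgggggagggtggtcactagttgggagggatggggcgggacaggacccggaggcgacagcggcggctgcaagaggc
Mag held 1 ACAAAG match, read as CTTTGT and beginning 126 bases before the start, Ncmap held 1 ACAAT match beginning 195 bases before it, and Prx held none of the 3 motifs. Among the other members with a promoter in the table, Egr2 itself held 1 GTGGGCG match beginning 31 bases before its start, and Pmp22 and S100b held none. Of 32851 promoters of the same length, 16.5% held ACAAAG, 27.7% held ACAAT and 7.02% held GTGGGCG, so such matches are common. The 3 motifs do not overlap one another in these windows.

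The libraries held 14584450 to 16579573 reads on genes. All values below are normalised read counts, which are reads on a gene divided by the authors' size factor for the library. Tcf21 itself was at 26.0, 0 and 0 in cKO replicates 1 to 3, where 0 reads allow a value of up to 2.93 and 3.31 in replicates 2 and 3, and at 341.4, 151.9 and 144.1 in control replicates 1 to 3. Tested with limma on log2(value + 1), 45 of 16314 genes were higher and 145 lower in cKO uteri at a Benjamini-Hochberg adjusted p under 0.05 (12 and 119 when libraries were scaled by total reads). Transcripts of other tissues were unevenly spread: 6 liver markers took 0.0000422 to 0.00652% of reads in cKO libraries, and 1.25, 0.00193 and 0.00703% in control replicates 1 to 3. Skeletal muscle markers took 6.49, 9.48 and 9.04% of reads in cKO libraries and 3.21, 6.23 and 4.50% in controls. Fewer cells of a type and less RNA per cell cannot be told apart in such bulk tissue.

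Because the 8 genes were chosen with this comparison already known, their fold changes are given as a description and carry no p-value. Of the 8, 7 had a positive log2 fold change and 1 a negative one, with a median of 1.01 against 0.0020 over all 16314 genes tested. By limma 2 of them, Mbp and Prx, were called higher, where 0.276% of all genes tested were. In 4 of them every cKO library lay above every control library, as it did for 9.04% of all genes tested. Neither count is evidence about the set, since the choice used it. The count of 2 changed with the test and with the libraries used. DESeq2 also called Mbp and Prx, where it called 1.8% of all genes higher (5.52% in either direction). edgeR called none of the 8, where it called 0.0797% higher (0.748% in either direction), and limma-voom called none. For limma, with 1 library left out the count was 2 without control replicate 1, 1 without cKO replicate 2 and 0 without any of the other 4. The calls over all 16314 genes changed as well. Limma called 2, 3 and 1 of them higher without cKO replicates 1, 2 and 3, and 92, 75 and 51 without control replicates 1, 2 and 3.

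**Figure D1:**
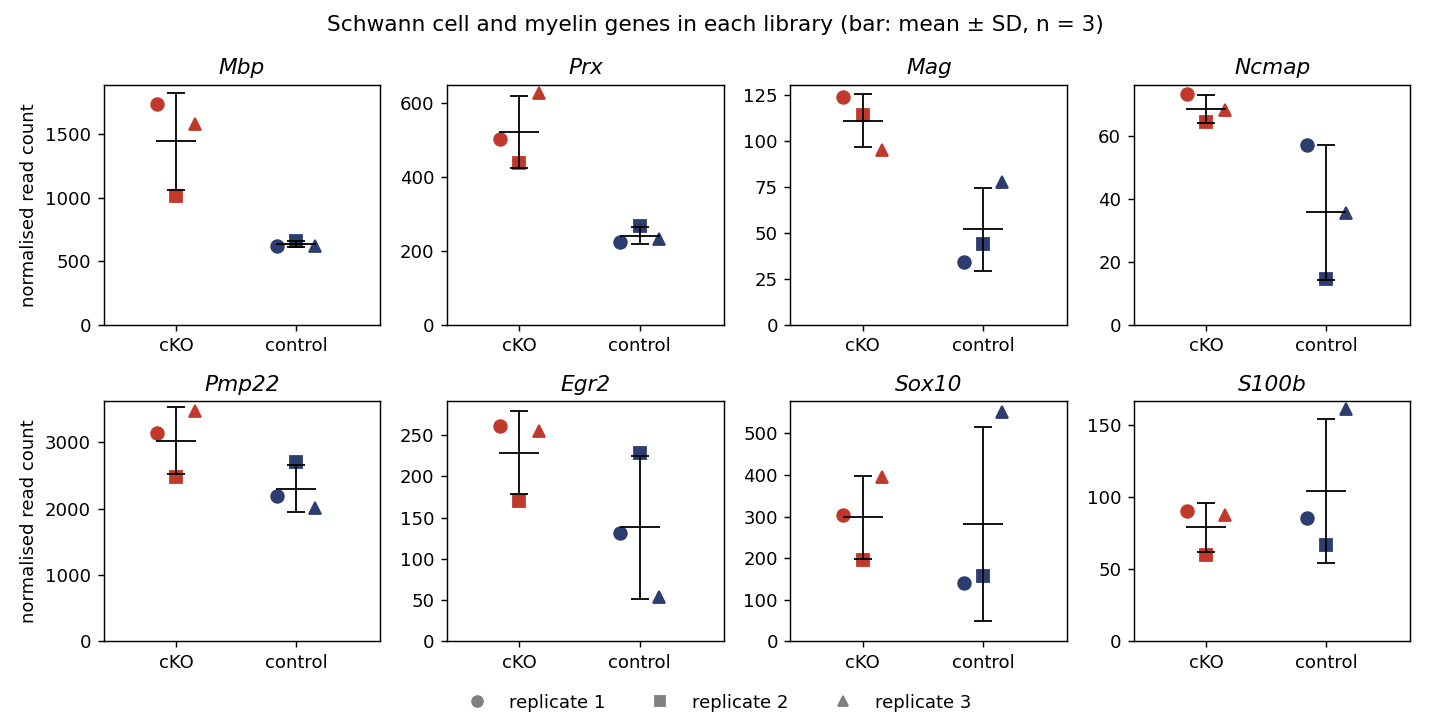
Normalised read count (vertical axes, linear, from 0) of the 8 genes in each library, with cKO at the left and control at the right of each panel; symbols mark replicates and bars the mean and SD of 3. Mbp, Prx, Mag and Ncmap have 3 cKO libraries above the 3 controls, while control replicate 3 is the highest library for Sox10 and S100b.

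Among the genes for myelin proteins, Mbp, Prx, Mag and Ncmap had cKO means 1.92 to 2.27 times the control means, and Pmp22 1.32 times. Mbp, which encodes the basic protein that seals the cytoplasmic faces of compact myelin, had values of 1739.5, 1010.2 and 1581.1 in cKO replicates 1 to 3, against 623.0, 662.4 and 621.0 in control replicates 1 to 3. The controls lay within a narrow band, and the lowest cKO library, replicate 2, still stood well above them. The cKO mean was 2.27 times the control mean, and the log2 fold change was 1.15 ± 0.21 (standard error with 3 animals per group), with a 95% confidence interval of 0.67 to 1.62. Mbp also gives rise to other products, the golli proteins, in cells of the immune system, and gene counts do not separate them.

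Prx encodes periaxin, a scaffold that ties the outer Schwann cell membrane to the basal lamina through dystroglycan. It was at 501.8, 436.9 and 628.7 in cKO libraries and at 224.3, 267.8 and 232.2 in controls, again without overlap. Its mean was 522 ± 97.6 (SD, n = 3) in cKO uteri and 241.5 ± 23.2 in controls, a log2 fold change of 1.10 ± 0.20. The gene (ENSMUSG00000053198) spans bases 27499324 to 27520214 of chromosome 7, plus strand, in GRCm38. Opposite-strand exons of Gm15541 cover 5.38% of its exon bases, and reads there are uncertain because no strand setting is stated for the counting. None of the other 7 shares exon bases with another gene.

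Mag, the myelin-associated glycoprotein that holds the inner myelin membrane to the axon, spans bases 30899176 to 30914873 of chromosome 7, minus strand (ENSMUSG00000036634). It was at 123.6, 114.1 and 95.0 in cKO libraries and at 34.1, 44.0 and 77.4 in controls. Control replicate 3 was the highest control and still lay below all 3 cKO libraries. The log2 fold change was 1.16 ± 0.38, and 1.48 without control replicate 3. Ncmap, which encodes a membrane protein of the non-compact regions of myelin, was at 73.4, 64.4 and 68.5 in cKO libraries and at 57.3, 14.4 and 35.6 in controls. The control spread was wide, so that its log2 fold change of 1.12 ± 0.52 had an interval from -0.045 to 2.29. That value was 0.59 without control replicate 2, which held 16 reads of Ncmap, and 1.55 without control replicate 1.

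Pmp22 and Egr2 overlapped between groups. Pmp22, a membrane protein of compact myelin whose gene dosage matters in inherited neuropathies, was at 3137.9, 2471.0 and 3473.9 in cKO libraries and at 2189.8, 2699.8 and 2015.9 in controls. Its log2 fold change of 0.39 ± 0.19 was the smallest positive value among the structural genes. It was also the most abundant of the 8 for its length, with 1286 normalised reads per kilobase in cKO uteri and 978 in controls, and it made up 50.4 to 54.6% of the reads on the 8 genes in cKO libraries and 53.8 to 65.2% in controls. Egr2 was at 261.1, 170.6 and 255.2 in cKO libraries and at 131.7, 228.3 and 54.3 in controls. Its lowest value was in control replicate 3 and its second control lay among the cKO values, and the log2 fold change of 0.93 ± 0.48 came to 0.37 without control replicate 3 and 1.40 without control replicate 2.

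Sox10 and S100b, which mark Schwann cells and related glia whether or not they form myelin, followed another order. Sox10 was at 303.8, 195.0 and 394.5 in cKO libraries and at 140.2, 156.4 and 551.6 in controls, so that control replicate 3 was the highest of all 6 libraries while the other controls were the lowest. The log2 fold change was 0.31 ± 0.54 with all libraries and 0.94 without control replicate 3. Leaving out control replicate 1 gave -0.039, leaving out control replicate 2 gave 0.039, and the value with cKO replicate 3 left out was 0.084, so the sign did not hold. S100b, a calcium-binding protein, was at 90.1, 59.5 and 87.3 in cKO libraries and at 85.3, 66.5 and 161.0 in controls. Control replicate 3 again stood highest, and the log2 fold change of -0.32 ± 0.39 was 0.043 without it and -0.59 without control replicate 2.

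**Figure D2:**
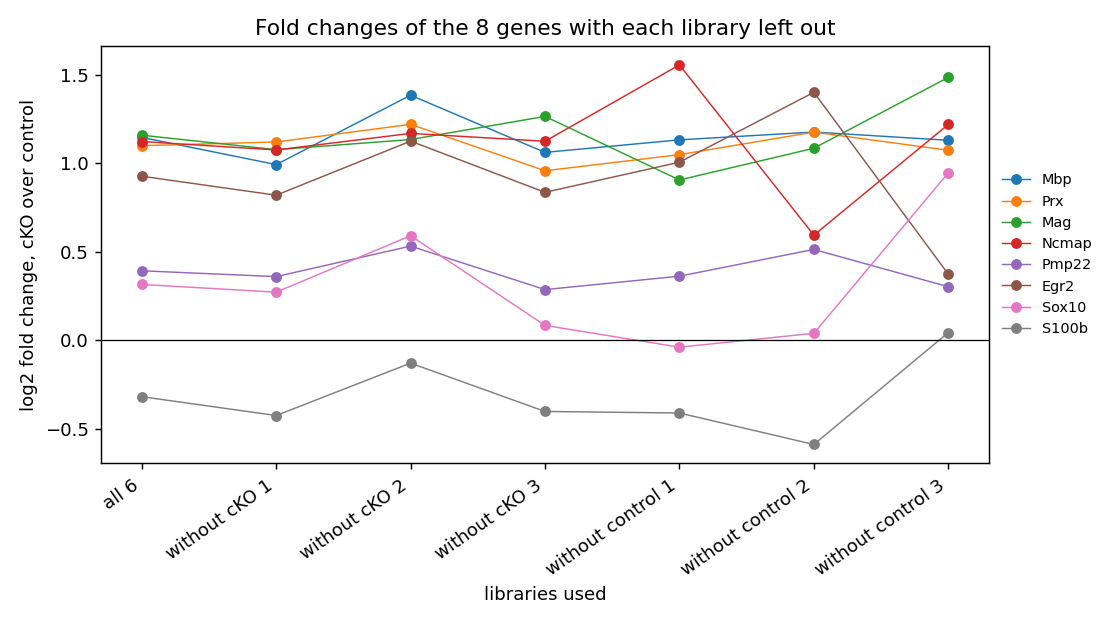
Log2 fold change, cKO over control (vertical axis), of each of the 8 genes with all 6 libraries and with each library left out in turn (horizontal axis). Mbp and Prx stay between 0.96 and 1.38, while Sox10 moves from 0.31 to 0.94 when control replicate 3 is left out.

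Per kilobase of gene length, the cKO order was Pmp22, Mbp (171.8), Sox10 (97.6), Prx (93.6), Egr2 (67.4), S100b (53.2), Ncmap (30.9) and Mag (27.2), in normalised reads per kilobase. In controls it was Pmp22, Sox10 (92.7), Mbp (75.6), S100b (70.3), Prx (43.3), Egr2 (40.6), Ncmap (16.1) and Mag (12.7). Among controls, Sox10 stood above Mbp on this scale in replicate 3 and below it in replicates 1 and 2. Within a library, ratios to Sox10 do not depend on scaling. Reads of Mbp for each read of Sox10 numbered 5.72, 5.18 and 4.01 in cKO replicates 1 to 3, against 4.44, 4.24 and 1.13 in control replicates 1 to 3. Those of Prx numbered 1.65, 2.24 and 1.59 in cKO libraries, against 1.60, 1.71 and 0.421 in controls. Both ratios overlapped between the groups, and control replicate 3 was the library that stood apart.

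Genes of peripheral myelin outside the 8 were tested in the same fit. Of 22 such genes reported here 21 were tested, and none was called by limma or edgeR, where limma called 0.276% of all genes higher. DESeq2 called 2 higher, against 1.8% of all genes, and 4 had an unadjusted limma p under 0.05, against 13.7% of all genes in either direction. Their median log2 fold change was 0.46, 16 of the 21 values were positive, and in 4 genes every cKO library lay above every control, against 9.04% of all genes. Cldn19, the claudin of the tight junctions in myelin, was at 154.2, 143.3 and 194.5 in cKO libraries and at 41.5, 54.8 and 90.7 in controls, a log2 fold change of 1.44 ± 0.35 (limma adjusted p = 0.106). Ugt8a, the enzyme that makes galactosylceramide, the main glycolipid of myelin, had a log2 fold change of 1.69 ± 0.55 (limma adjusted p = 0.216), and Drp2, the partner of periaxin in the dystroglycan complex, one of 0.57 ± 0.19 (0.223). Exons on the opposite strand cover 2.11% of Cldn19. The 2 genes that DESeq2 called were Cldn19 and Ugt8a. Without control replicate 3, Cldn19 passed at 1.75 (limma adjusted p = 0.0407), where limma called 0.313% of all genes higher and 1.31% lower. Gldn, which encodes the gliomedin that gathers sodium channels at nodes of Ranvier, had a log2 fold change of 1.50 ± 0.53 (limma adjusted p = 0.249) with overlapping groups. Cnp, an enzyme of non-compact myelin, had a log2 fold change of 0.015 ± 0.24. Gjb1, a gap junction protein of myelin and of liver, was at 27.9, 11.7 and 19.9 in cKO libraries and at 1513.1, 14.4 and 10.7 in controls, and its highest value was in the control library with the liver transcripts.

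**Figure D3:**
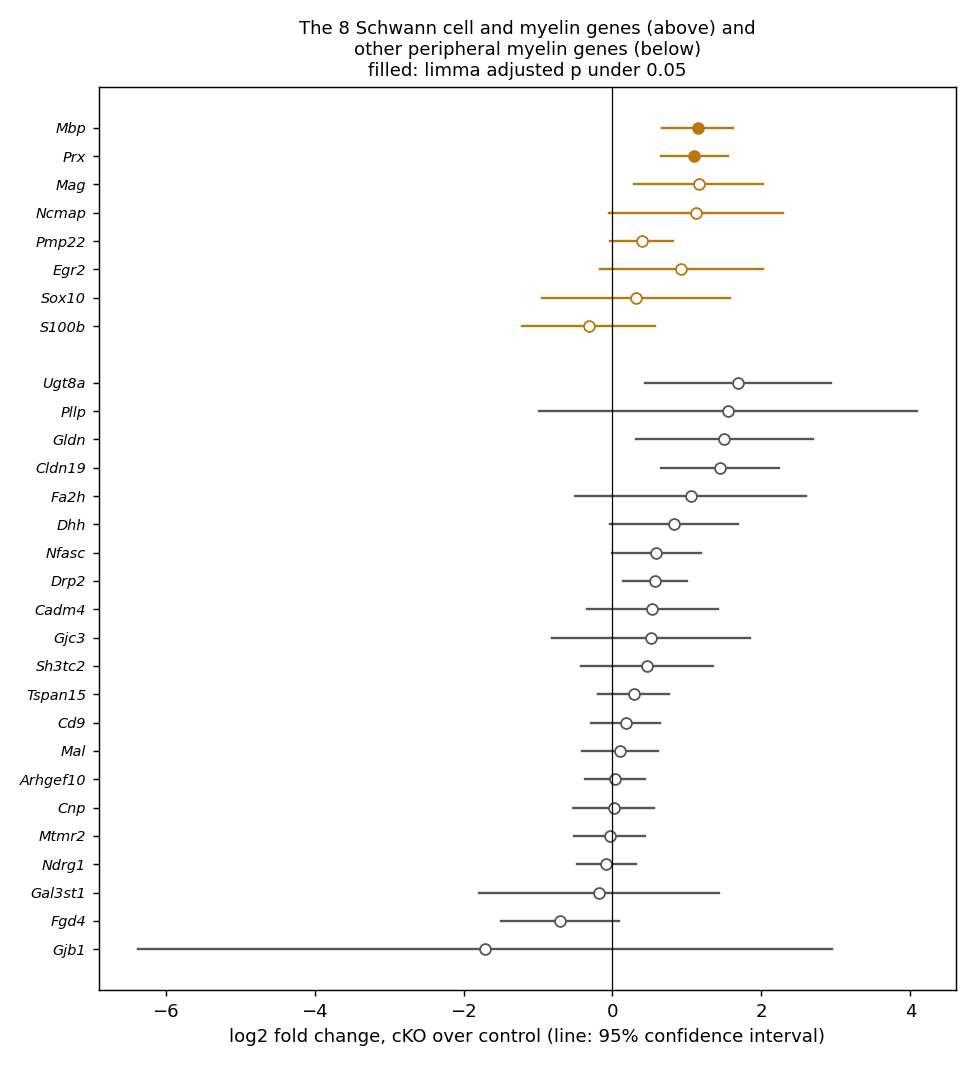
Log2 fold change, cKO over control (horizontal axis), with its 95% confidence interval for the 8 genes (upper block) and 21 tested peripheral myelin genes (lower block, ordered by value). Filled points were called by limma over all genes: Mbp and Prx.

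Genes of the Schwann lineage and of non-myelinating Schwann cells were split in direction. Of 20 genes 17 were tested, and none was called by limma or edgeR. DESeq2 called Erbb3, Ngfr and Cdh2 lower, and 4 genes had an unadjusted limma p under 0.05, against 13.7% of all genes in either direction. The median log2 fold change was 0.012, with 9 positive and 8 negative values, and its sign rested on single libraries: it was 0.42 without control replicate 3 and -0.48 without control replicate 1. Limma called Ngfr lower when no filter on low values was used (adjusted p = 0.0445), and Cdh2 lower without control replicate 2 (0.0181). Erbb3, the receptor through which axonal neuregulin sustains Schwann cells, was at 152.4, 201.9 and 167.9 in cKO libraries and at 326.8, 247.1 and 346.1 in controls, below every control but short of the threshold (log2 fold change -0.81 ± 0.23, limma adjusted p = 0.158). Ngfr, the low-affinity neurotrophin receptor of immature and non-myelinating Schwann cells and of some stromal cells, was at 420.9, 485.6 and 421.0 in cKO libraries and at 768.1, 1310.3 and 714.4 in controls (log2 fold change -1.02 ± 0.24, limma adjusted p = 0.089). Erbb3 and Ngfr were the only 2 of the 17 tested genes with every cKO library below every control, as in 10.5% of all genes tested by limma. DESeq2 called 3.72% of all genes tested lower. The lineage genes Foxd3 and Cdh19 had log2 fold changes of 0.18 ± 0.62 and -0.0007 ± 0.61, and 0.76 and 0.61 without control replicate 3, with no call. Cdh2 and Matn2, an adhesion molecule and a matrix protein, had values of -1.24 ± 0.46 and -0.73 ± 0.29. Gfap, a filament protein of non-myelinating Schwann cells and enteric glia that was not tested, was at 2.8, 0 and 7.7 in cKO libraries and at 7.3, 92.6 and 268.7 in controls.

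Among 15 genes of signalling between axon and Schwann cell, 1 fell, where 0.889% of all genes fell, none rose and 14 did not pass by limma. The median log2 fold change was -0.30, with 12 negative and 3 positive values. In 5 genes every cKO library lay below every control, against 10.5% of all genes. An unadjusted limma p under 0.05 was held by 5, against 13.7% of all genes in either direction. The gene that fell was Adam22, the receptor on axons for Lgi proteins, at 92.0, 87.8 and 60.8 in cKO libraries and at 446.2, 275.9 and 196.6 in controls (log2 fold change -1.86 ± 0.34, limma adjusted p = 0.0384). edgeR did not call it (adjusted p = 0.0608), nor did limma without any 1 cKO library or control replicate 2 (0.0723 to 0.201). Itgb1, Cadm1, Igf1r and Adgrg6 encode an integrin chain, an adhesion molecule, a growth factor receptor and the receptor that starts myelination. Their log2 fold changes ran from -0.93 to -0.49 without a limma call, and that of the axonal signal Nrg1 was -0.60 ± 0.42. DESeq2 called 2 genes of this list lower, Adam22 and Itgb1, where it called 3.72% of all genes tested lower. Of 16 genes of transcriptional control in Schwann cells 1 fell, none rose and 15 did not pass by limma, with a median of -0.033. It was Id2, an inhibitor of basic helix-loop-helix factors that many mesenchymal cells express, at 283.4, 269.1 and 233.1 in cKO libraries and at 552.3, 517.7 and 524.9 in controls (log2 fold change -1.02 ± 0.17, limma adjusted p = 0.030). Its call was lost when any cKO library (0.0871 to 0.183) or control replicate 2 (0.054) was left out, and with scaling by total reads (0.0535). Yap1, Id4, Nfatc4 and Tead1 had values of -0.46 ± 0.17, -1.35 ± 0.57, -0.47 ± 0.22 and 0.35 ± 0.19 and were not called by limma or edgeR. DESeq2 called 2 genes of the transcriptional control list, Id2 and Id4 (adjusted p = 0.0325), both lower, again against 3.72% of all genes tested. In 3 genes of that list every cKO library lay below every control, and 3 had an unadjusted limma p under 0.05.

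Most neuronal transcripts had negative fold changes, and most were highest in control replicate 3. Of 29 such genes reported here 19 were tested, 2 fell, where 0.889% of all genes fell, none rose and 17 did not pass by limma. Both that fell passed the filter on low reads through the controls alone, and the neuronal genes were the contrast used to choose the 8, so the count supports nothing further. The median log2 fold change was -1.17 and 17 of 19 values were negative, while edgeR called none. DESeq2 called 5 lower, where it called 3.72% of all genes lower. An unadjusted limma p under 0.05 was held by 4, against 13.7% of all genes in either direction. Without control replicate 3 the median was -0.37 and limma called none. Without control replicate 1 the median was -1.90 and limma called 6 lower, where it called 277 of all genes tested lower. Snap25, a protein of synaptic vesicle fusion, had no read in any cKO library, where its values could be up to 2.79, 2.93 and 3.31, and was at 19.5, 98.0 and 693.0 in controls (limma adjusted p = 0.0349). Syt1, the calcium sensor of vesicle release, was at 8.4, 2.9 and 0 in cKO libraries and at 90.2, 98.0 and 558.7 in controls (log2 fold change -5.69 ± 0.98, limma adjusted p = 0.0351). The calls did not hold in every fit with 1 library left out, and the number of calls over all genes also changed there. Limma called 145 of all genes lower with all libraries and 70, 46 and 46 without cKO replicates 1, 2 and 3. Without control replicates 1, 2 and 3 it called 277, 85 and 214 lower. The log2 fold change of Snap25 was -6.81 with all libraries and without any 1 cKO library. Snap25 kept its limma call with 1 library left out only without control replicate 1, with adjusted p from 0.0744 to 0.175 otherwise. Syt1 kept its call only without cKO replicate 1 or control replicate 1, with limma adjusted p from 0.054 to 0.186 otherwise.

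Other neuronal genes showed the same library. Prph, a filament protein of peripheral neurons, was at 12.1, 8.8 and 13.3 in cKO libraries and at 7.3, 190.5 and 1751.7 in controls. It was far higher in control replicate 3 than anywhere else, and lowest in control replicate 1. Rtn1 and the vesicle transporter gene Slc18a2 had log2 fold changes of -2.86 ± 1.02 and -1.90 ± 0.59, with every cKO library below every control. Across the 19 tested neuronal genes 4 had this order, against 10.5% of all genes, and 1 had the reverse, against 9.04%. Slc6a2, the noradrenaline transporter of sympathetic neurons, was at 63.2, 81.9 and 132.6 in cKO libraries and at 47.6, 36.8 and 60.5 in controls, and the log2 fold change of Npy was 2.04 ± 0.90. Slc6a2 and Npy were the only 2 of the 19 with a positive value, and neither passed (limma adjusted p = 0.374 and 0.375).

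**Figure D4:**
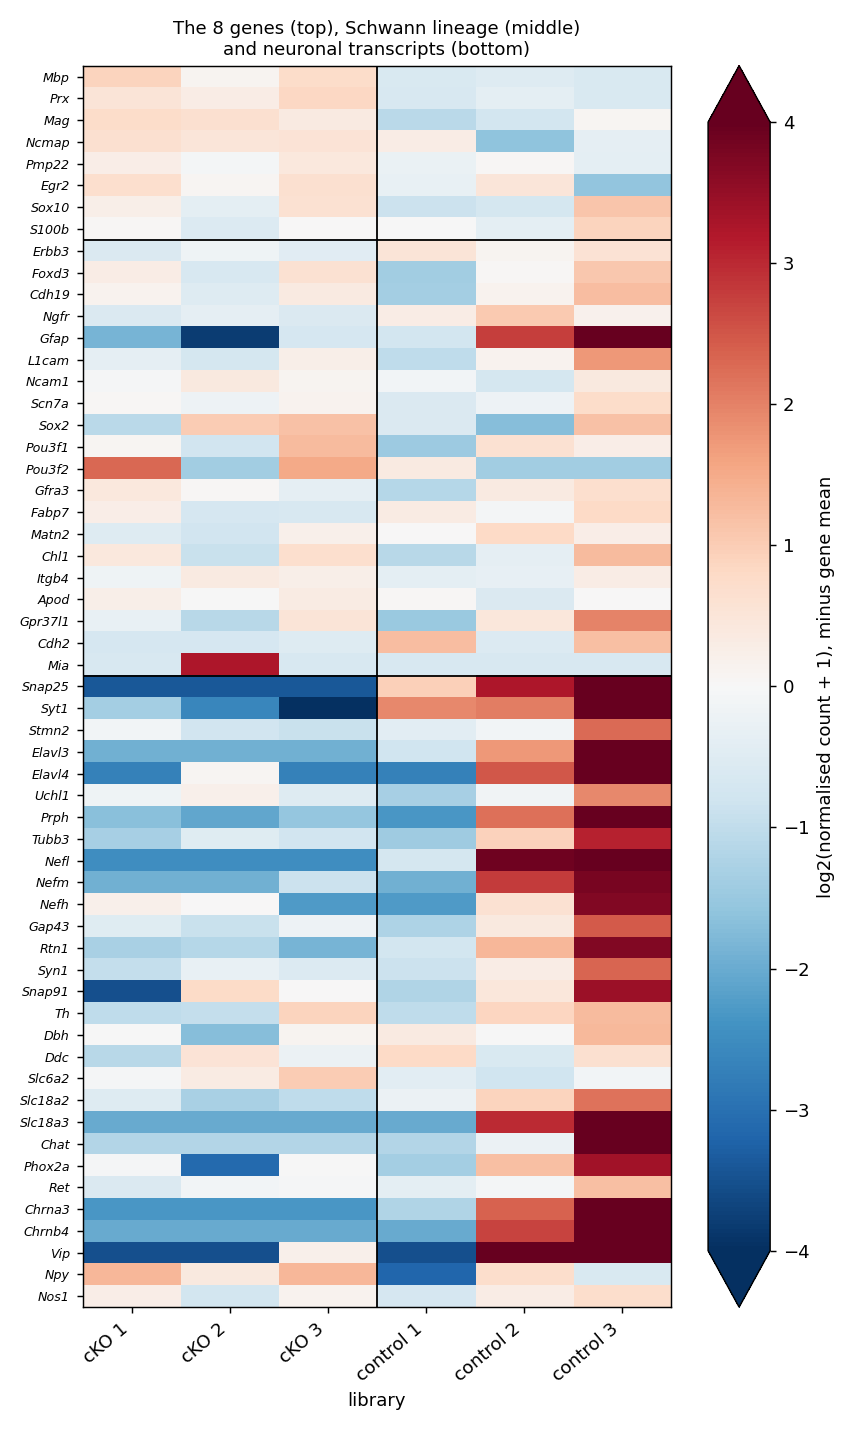
Log2(normalised count + 1) minus each gene's mean over 6 libraries (colour, cut at -4 and 4) for the 8 genes, 20 genes of the Schwann lineage and 29 neuronal transcripts, with cKO libraries at the left and controls at the right. Mbp, Prx, Mag and Ncmap lie above their gene means in every cKO library, in some only slightly and so near white. Most neuronal rows are red in control replicate 3.

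Summed over each list, the 8 genes took 0.0404, 0.0290 and 0.0409% of reads in cKO replicates 1 to 3 and 0.0196, 0.0284 and 0.0269% in control replicates 1 to 3. The lowest cKO library and the highest control were nearly level. Without Pmp22 the shares were 0.0201, 0.0131 and 0.0193% in cKO libraries and 0.00729, 0.00986 and 0.0124% in controls. The 29 neuronal genes took 0.00976, 0.00918 and 0.00941% in cKO libraries and 0.00653, 0.0195 and 0.0851% in controls. The 95% Wilson intervals reached at most 0.00105 percentage points to either side for the 8 genes and 0.00145 for the neuronal genes, and they cover counting error only. The neuronal share was thus steady over the cKO libraries and differed widely among controls.

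**Figure D5:**
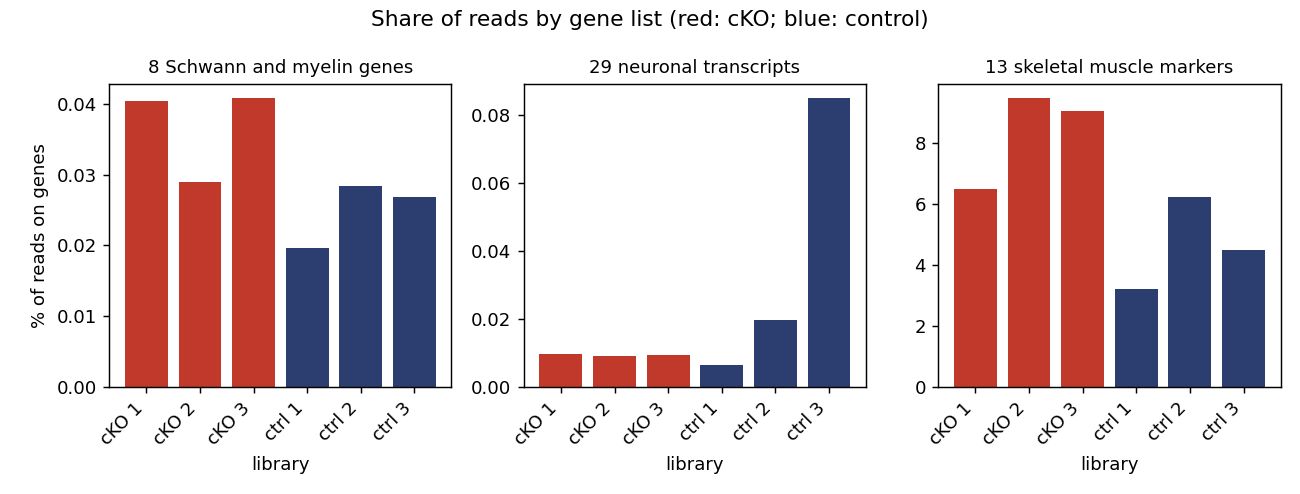
Share of reads on genes (vertical axes, percent, from 0) taken by the 8 Schwann and myelin genes, 29 neuronal transcripts and 13 skeletal muscle markers in each library, with cKO in red at the left and control in blue at the right. The neuronal share reaches 0.0851% in control replicate 3, and the skeletal muscle share is 6.49 to 9.48% in cKO libraries and 3.21 to 6.23% in controls.

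Skeletal muscle transcripts took a larger share of reads in every cKO library than in any control. All 12 tested skeletal muscle markers had a positive log2 fold change, with a median of 0.89, and in 7 of them all cKO libraries lay above all controls, against 9.04% of all genes. None was called by limma or edgeR, DESeq2 called 7 (1.8% of all genes higher), and the unadjusted limma p was under 0.05 for 10 (13.7% of all genes). Set against the reads of these muscle genes, Mbp had 1740, 682 and 1085 reads per 1000000 skeletal muscle reads in cKO libraries and 1091, 729 and 988 in controls. Prx had 502, 295 and 431 in cKO libraries and 393, 294.6 and 370 in controls. Mag had 124, 77.1 and 65.2 in cKO libraries and 59.8, 48.4 and 123 in controls. On this scale the groups overlapped for all 3 genes. The part of skeletal muscle and its nerves in the result was not tested.

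Markers of other cells that the tissue could hold were also measured. Of 6 genes of enteric glia tested, including Sox10 and S100b, 5 were highest in control replicate 3, as were 2 of the 8 genes, 10 of 17 tested genes of the Schwann lineage and 16 of 19 neuronal genes, against 19.7% of all genes tested. Oligodendrocyte myelin was nearly absent: Mog was at 14.9, 9.8 and 4.4 in cKO libraries and at 4.9, 0 and 0.9 in controls, and Mobp was at 6.1 or less in every library. That list summed to 66.9 to 145.8 in cKO libraries and 48.0 to 68.3 in controls, mostly Ugt8a and Cldn11. The melanocyte genes Tyr, Tyrp1 and Dct were at 7.3 or less in every library, and the 6 melanocyte markers summed to 389.0 to 567.7 in cKO libraries and 417.3 to 619.3 in controls. None of 7 adipocyte markers was called by limma, edgeR or DESeq2 or had an unadjusted p under 0.05, and their shares of reads were 0.0624 to 0.124% in cKO libraries and 0.0455 to 0.0864% in controls. Markers of nerve sheath fibroblasts took 0.0127 to 0.0137% of reads in cKO libraries and 0.0153 to 0.0211% in controls. Yet 5 of 9 tested had a positive log2 fold change, and the median was 0.14 (-0.19 without control replicate 3). With all libraries limma called none of the 9, while DESeq2 called Ngfr lower, against 3.72% of all genes. Without control replicate 3 limma called Osr2 lower (log2 fold change -1.79, limma adjusted p = 0.0112), against 1.31% of all genes. Without Ngfr the summed normalised counts of these markers overlapped between groups, at 1537.8 to 1785.7 in cKO libraries and 1773.3 to 1949.6 in controls. Smooth muscle markers, of which 7 of 8 fell by limma against 0.889% of all genes, took 0.493 to 0.667% in cKO libraries and 1.20 to 1.69% in controls. The part of these tissues in the values of the 8 genes was not tested.

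The shared profile of the 8 genes, the mean of their standardised log2 values in each library, was 0.74, 0.027 and 0.81 in cKO libraries and -0.67, -0.65 and -0.26 in controls. The members differed in how closely they kept to it, with Pearson's r over 6 libraries of 0.96 for Mbp, 0.92 for Prx, 0.84 for Mag, 0.78 for Pmp22, 0.66 for Ncmap, 0.56 for Sox10, 0.47 for Egr2 and 0.041 for S100b. These coefficients include each gene's own part in the profile. Among 13682 protein-coding genes outside the lists with a mean of at least 1 CPM, the 8 most like it were Pigc, Mdn1, Ckmt2, Apopt1, Gigyf1, Nos2, Alkbh2 and Ctdnep1, with r from 0.99 to 0.97, and 118 genes had r over 0.9. The 6 points are 3 libraries of each group, so that the difference between groups enters every coefficient. Ckmt2, the mitochondrial creatine kinase of striated muscle, was at 9169.4, 6018.5 and 8209.5 in cKO libraries and at 4653.9, 4776.7 and 5248.9 in controls. Nos2, the inducible nitric oxide synthase, was at 64.1, 38.0 and 69.6 in cKO libraries and at 25.6, 18.9 and 30.2 in controls. For both, cKO replicate 2 was the lowest cKO library, as in the profile by which they were picked, so this order adds nothing beyond the choice. None of the 8 genes most like the profile was called by limma.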

How the data were processed

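Total RNA from uteri was sequenced as 1 library per animal. The submitters' processing notes name HISAT2, SAMtools and featureCounts, without versions, and GRCm39; how strand and multiply mapped reads were handled is not stated. Of 25988 gene identifiers found in GENCODE vM21, 25239 had identical coordinates there, so the table's coordinates are read as GRCm38. The signal columns deposited by the authors behave as reads per gene over a library size factor: dividing by the smallest value above 0 in a library gave whole reads within 0.01 for 100% of values, and these were used as recovered counts. The deposited table also holds the authors' log2 fold changes, their p-values, group means and gene lengths; of these, only the lengths were used here. In 24 rows a date stood for a symbol, restored by identifier.

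The main test was limma 3.58.1 (R 4.3.3) on log2(value + 1) with trended, robust variance moderation, after edgeR 4.0.16 filterByExpr on recovered reads, without covariates, with Benjamini-Hochberg adjustment over 16314 genes and a threshold of 0.05. Fold changes on this scale understate those of low genes, and ± after a log2 fold change is its standard error. Alternatives were edgeR's quasi-likelihood test, DESeq2 1.42.0 and limma-voom on recovered reads (the share of values that came out whole was 100%, and edgeR called 13 higher and 109 lower genes), other scalings, filters and pseudocounts, a replicate block, and leaving out libraries. The members and lists were chosen with earlier results of these data known. Some listed genes are not reported here and are left out of the list counts and sums, but not of the fit. The text names the 8 members; from each other pathway list and the neuronal list the called genes, up to 4 further genes with the smallest p and genes that define the cell type; and the 8 genes most like the shared profile. Muscle and other marker genes named singly were chosen after their values were seen. For named pathway genes, exon overlaps and near-identical stretches (blastn 2.17.0, 95% identity, 100 bases or longer) were recorded. Promoter windows stop at the start, shorter than planned. Separate animals are the replicates, 3 per group.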

Additional observations from a re-analysis of the deposited data

How the results depend on the processing

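The median log2 fold change over the 8 genes, 1.01, stayed between 0.84 and 1.13 in all alternatives, whereas the count of them called by limma, 2, did not hold. It was 0 with edgeR, limma-voom or scaling by total reads, 1 with a replicate block, and 0 to 2 with 1 library left out. Genes called higher numbered 45 in the main test, 280 with DESeq2, 13 with edgeR, 19 with limma-voom, 82 without a filter on low values, 12 with scaling by total reads and 1 to 92 with 1 library left out. Genes called lower numbered 145 in the main test, 578 with DESeq2, 82 with limma-voom and 46 to 277 with 1 library left out. Called peripheral myelin genes outside the 8 numbered 0, 2 with DESeq2 and 0 to 1 with 1 library left out. Called neuronal genes numbered 2, 5 with DESeq2, 0 with edgeR or limma-voom, 1 with a pseudocount of 0.5 or 5 or a replicate block, and 0 to 6 with 1 library left out, the 6 without control replicate 1. Id2 lost its limma call with a replicate block (adjusted p = 0.0581). Leaving out control replicates 1 and 3 together, chosen after seeing the data, leaves 1 control, assumed to vary like the cKO group. It gave 254 higher and 465 lower genes, 1 call among the 8, Ncmap, and 1 among the other myelin genes. Without Pmp22 the mean share of reads on the 8 genes was 0.0175% in cKO libraries and 0.00985% in controls. The cause of these changes was not tested. Same-numbered libraries did not deviate together, with r = 0.00843, -0.176 and 0.0438 for numbers 1 to 3. Libraries of unlike number had r from -0.121 to 0.0985. This check cannot exclude a pairing of animals with little shared effect. Mag and Ncmap rest on 28 to 133 and 16 to 79 reads per library, which limits their precision.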
